A study of Homo sapiens with 6 samples.

Results

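The genes described here are the Rap1 GTPases and the proteins that act on them directly, in Huh-7 cells with and without overexpression of RAC3. Members were taken by gene symbol from the count table: 10 of its 20332 genes. They are the GTPases RAP1A and RAP1B, 4 guanine nucleotide exchange factors (RAPGEF1, RAPGEF2, RAPGEF3 and RAPGEF6) and 4 GTPase-activating proteins (RAP1GAP, SIPA1, SIPA1L1 and SIPA1L3). Huh-7 is an established line from a human hepatocellular carcinoma, and RAC3 is a small GTPase. Poly(A) RNA of 3 negative control samples and 3 RAC3 overexpression samples was sequenced. According to the study's methods the overexpressing line was made by lentiviral infection. Whether the negative controls carried an empty vector, and whether either line came from 1 clone, is not given in the sources used here.

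The genotype label is WT for the controls. For the overexpression samples titled 1, 2 and 3 it names RAC3, RAC4 and RAC5 in turn, and the samples were grouped here by their titles. RAC3 itself was measured at 35.6, 31.4 and 32.8 CPM (counts scaled to the normalized library size) in the controls and at 233, 239.6 and 225 CPM in the overexpression samples, a log2 fold change of 2.81 (edgeR adjusted p = 9.6e-18). All 3 overexpression samples therefore lay far above the controls, including those whose genotype label names another gene. Reads from the introduced copy and from the cell's own gene cannot be told apart in this count. Assigned counts ran from 13855762 to 18199888 per sample, so that 3 counts correspond to 0.165 to 0.217 CPM. All 8 hepatocyte markers passed the filter on low counts, and 50% had an adjusted p below 0.05, against 28.5% of all genes tested. Of these, 2 were higher (AFP and APOB) and 2 lower (TTR and TF). TF was at 1174 ± 43.6 CPM in the controls and 795 ± 31.5 CPM with RAC3, a log2 fold change of -0.56 (edgeR adjusted p = 1.2e-08). The summed level of the 8 markers was 5022 to 5100 CPM in the controls and 4482 to 4951 CPM with RAC3. Of 9 markers of other cell types (fibroblast, endothelial and blood cells), PTPRC, CD3E, CDH5, VWF and DCN stayed at or below 0.506 CPM in every sample. The summed level of those 9 was 53.7 to 58.5 CPM in the controls and 71.4 to 78.0 CPM with RAC3. COL1A2 and CD68 were higher, 50% of the 4 tested, against 28.5% of all genes tested. PDGFRB, of the same list, was at 2.93 ± 0.584 CPM in the controls and 1.78 ± 0.198 CPM with RAC3, a log2 fold change of -0.71 (edgeR adjusted p = 0.0573) with groups that did not overlap. The part of these markers in the results was not tested.

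Rap1 proteins are small GTPases of the Ras family that alternate between an inactive, GDP-bound and an active, GTP-bound form. Exchange factors load GTP: RAPGEF1 is recruited to receptor complexes through the adaptor CRK, RAPGEF3 (Epac1) is opened by cyclic AMP, and RAPGEF2 and RAPGEF6 (PDZ-GEF1 and PDZ-GEF2) carry PDZ domains. The activating proteins speed GTP hydrolysis and so end the signal. Active Rap1 is known for its control of integrin-mediated adhesion and of cell junctions. The state of the switch is set on the protein, so that the RNA levels below say how much of each transcript was present and not how much Rap1 was active.

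RAP1A and RAP1B encode nearly identical proteins from genes on different chromosomes. Both were higher with RAC3 before the correction for the share of G and C described below. The bases ahead of their RefSeq start sites are printed because this pair moved in the same direction. In GRCh38.p14, as given by RefSeq, the RAP1A stretch is chr1:111541759-111542008 on the plus strand, the 250 bases before its RefSeq start. GENCODE 29 places the start of RAP1A downstream of that, at 111542218. The RAP1B stretch is chr12:68610649-68610838 on the plus strand, and it ends 60 bases before the RefSeq start because GENCODE places the first transcribed base there. These stretches thus match neither in length nor in distance from the GENCODE start. A 30-base stretch at chr12:68610876-68610905 follows, in which capitals mark a full cAMP response element.
RAP1A: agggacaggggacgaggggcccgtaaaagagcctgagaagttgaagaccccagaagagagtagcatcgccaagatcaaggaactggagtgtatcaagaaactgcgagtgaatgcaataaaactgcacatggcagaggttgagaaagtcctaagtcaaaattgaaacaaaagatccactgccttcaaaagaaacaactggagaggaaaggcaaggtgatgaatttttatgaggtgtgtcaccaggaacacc
RAP1B: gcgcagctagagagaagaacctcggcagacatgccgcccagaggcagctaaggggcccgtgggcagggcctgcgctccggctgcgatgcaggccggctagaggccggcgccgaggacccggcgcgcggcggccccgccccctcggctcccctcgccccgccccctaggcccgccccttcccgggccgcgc
RAP1B element: ggctgaacgccTGACGTCAaggcgacatcg

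The RAP1A stretch held 4 CpG dinucleotides and 46.0% G and C, and the RAP1B stretch 24 CpG and 78.9%. Over the whole 300-base RefSeq windows (250 bases before the start, 50 after) the share of G and C was 43.7% for RAP1A and 75.7% for RAP1B, against a median of 58.7% over all 35116 promoters. RefSeq promoters were given for 9 of the 10 members (18 entries, RAP1GAP having none). The full element TGACGTCA, searched on both strands, was found in 1 of the 18, that of RAP1B, and in 1.85% of all promoters. It begins 12 bases before the RefSeq start of RAP1B and 48 bases after the GENCODE start. Its shorter core TGACG, which the full element contains, was present in the windows of RAP1B and RAPGEF6 and in 1 of 3 of RAPGEF2, and in 24.6% of all promoters. The SOX core AACAAT was in 0 of the 18 and in 10.1% of all promoters. These are matches of letters in the windows and not measured binding sites.

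Levels were compared between genes in FPKM, a unit scaled for transcript length and library depth that the deposited table gives beside the counts. In the controls RAP1B was the highest member at 123 ± 10.9 FPKM (SD, n = 3), above 95.5% of the genes tested. RAPGEF1 followed at 41.0 ± 1.56, SIPA1L3 at 31.6 ± 0.812, RAP1A at 26.2 ± 1.48 and RAP1GAP at 18.5 ± 2.03 FPKM. SIPA1, RAPGEF2, RAPGEF6 and SIPA1L1 lay between 7.62 and 4.83 FPKM. RAPGEF3, the cyclic AMP sensor among these 10 members, came last at 0.328 ± 0.157 FPKM, above 1.7% of the genes tested. No neighbours in this order overlapped in the controls over their 3 samples. With RAC3, RAPGEF1 (36.9 ± 1.09 FPKM) and SIPA1L3 (35.9 ± 0.795 FPKM) overlapped, as did each neighbouring pair in the run RAPGEF2, SIPA1, RAPGEF6 and SIPA1L1. RAPGEF2 and SIPA1 changed places within that run, and the order was otherwise the same.

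**Figure D1:**
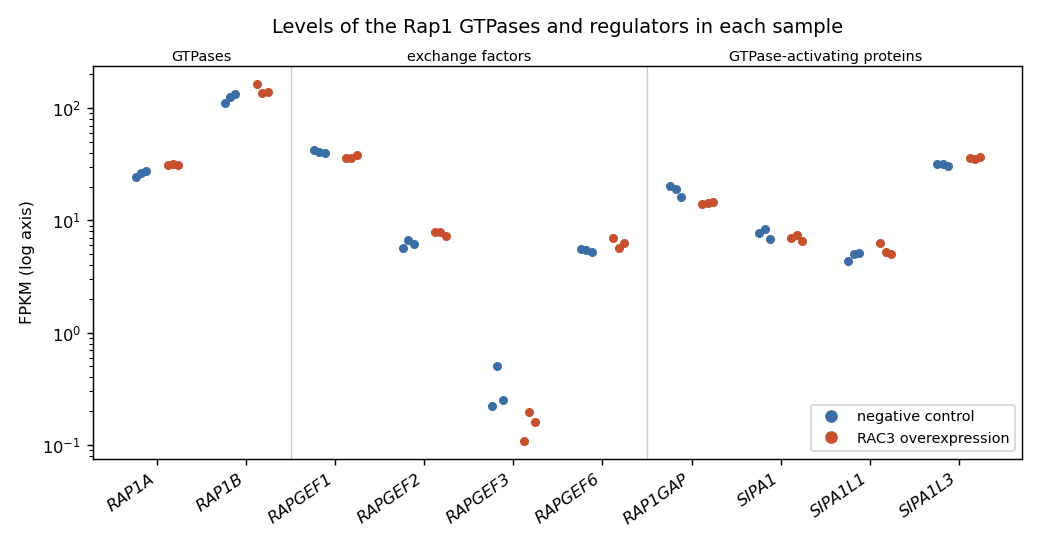
FPKM of the 10 Rap1 genes in each sample, on a log axis, with a point per sample for the 3 negative controls and the 3 RAC3 overexpression samples. RAP1B lies highest at 123 FPKM in the control mean, and RAPGEF3 lowest at 0.328 FPKM.

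Both GTPases were higher with RAC3 in the test on counts, and neither was called once the trend on G and C described below was removed. RAP1A was at 48.7, 53.2 and 54.2 CPM in the controls and at 58.7, 59.6 and 57.8 CPM in the overexpression samples. Each overexpression sample was above each control, and the log2 fold change was 0.17 (SE 0.0618, 95% interval 0.04 to 0.30, edgeR adjusted p = 0.0426), a rise of 12.7%. RAP1B was at 184, 207 and 217 CPM in the controls and at 255, 228 and 229 CPM with RAC3. These groups did not overlap either, with the first control the lowest and the first overexpression sample the highest library, and the log2 fold change was 0.23 (SE 0.0574, 95% interval 0.11 to 0.35, edgeR adjusted p = 0.00549), a rise of 17.2%. Summed over both genes, the GTPases came to 149 ± 12.3 FPKM in the controls and 179 ± 15.7 FPKM with RAC3 (n = 3 each), without overlap. RAP1B held 82.4% ± 0.479 of that sum in the controls and 82.3% ± 1.56 with RAC3, and these shares overlapped. In CPM both genes summed to 233, 260 and 271 in the controls and to 314, 288 and 287 with RAC3. The call for RAP1A was lost when any library other than the third control was left out, with a log2 fold change of 0.13 (edgeR adjusted p = 0.176) without the first control.

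RAPGEF1 was lower and the PDZ-domain exchange factors RAPGEF2 and RAPGEF6 were higher. RAPGEF1, the most abundant exchange factor of the 4, was at 217, 198 and 174 CPM in the controls and at 161, 163 and 176 CPM with RAC3. The third overexpression sample lay above the third control, so the groups overlapped in CPM, and the log2 fold change was -0.23 (SE 0.0625, 95% interval -0.36 to -0.10, edgeR adjusted p = 0.00904). RAPGEF2 was at 43.1, 50.01 and 47.3 CPM in the controls and at 57.5, 57.7 and 53.1 CPM with RAC3. Its groups did not overlap, and its log2 fold change of 0.26 (SE 0.0676, 95% interval 0.12 to 0.40, edgeR adjusted p = 0.00693), a rise of 19.9%, was the largest increase among the members. RAPGEF6 was at 44.1, 44.0 and 41.4 CPM in the controls and at 54.0, 46.6 and 47.2 CPM with RAC3. The groups were separate, with the first overexpression sample apart from the other two, and the log2 fold change was 0.19 (SE 0.0703, 95% interval 0.05 to 0.34, edgeR adjusted p = 0.0455). Without that library it was 0.12 (edgeR adjusted p = 0.245), and the call was also lost on leaving out any other library but the second overexpression sample. In GENCODE 29, RAPGEF6 shares 54.9% of its exon bases with AC008695.1, a gene on the same strand that was listed at 0 counts in all 6 samples, so its level depends on how shared reads were assigned.

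RAPGEF3 had low counts in every sample. It had 11, 13 and 11 counts in the controls and 10, 15 and 12 counts with RAC3, or 0.563 to 0.911 CPM over all samples. The groups overlapped, and the log2 fold change of 0.04 (SE 0.425, edgeR adjusted p = 0.959) has a 95% interval of -0.85 to 0.93, wide enough to hold changes above 1.5-fold in either direction. FPKM gave a different picture, at 0.224, 0.508 and 0.251 in the controls and 0.109, 0.195 and 0.161 with RAC3. The transcript length implied by counts and FPKM differed up to 3.21-fold between samples of this gene, against a median of 1.08 over all genes, so no direction is given for RAPGEF3. An antisense gene, AC004241.1, overlaps 15.2% of the exon bases of RAPGEF3 in GENCODE 29, and the strand setting of the counting is not known. Summed, the 4 exchange factors came to 53.0 ± 1.34 FPKM in the controls and 51.1 ± 0.938 FPKM with RAC3, and the groups overlapped. Within that sum the share of RAPGEF1 was 77.5% ± 1.35 in the controls and 72.3% ± 1.36 with RAC3, without overlap.

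RAP1GAP was lower with RAC3, the largest change among the members, and none of the other 3 activating proteins passed the test. RAP1GAP, which acts on Rap1 in its GTP-bound form, was at 63.3, 57.2 and 50.6 CPM in the controls and at 40.9, 43.1 and 42.1 CPM with RAC3. Every overexpression sample lay below every control. The log2 fold change was -0.44 (SE 0.0749, 95% interval -0.59 to -0.28, edgeR adjusted p = 2.5e-04), and the level fell by 26.1%. SIPA1L3, the most abundant activating protein, was at 256, 258 and 248.8 CPM in the controls and at 270.5, 270.3 and 284 CPM with RAC3. The groups were separate, yet the log2 fold change of 0.11 (SE 0.0419, 95% interval 0.02 to 0.20) had an edgeR adjusted p of 0.0527. SIPA1 was at 27.7, 29.8 and 24.2 CPM against 23.9, 25.3 and 22.5 CPM, and SIPA1L1, whose exon bases AC004974.1 overlaps by 19.1% on the other strand, at 29.2, 35.5 and 31.9 CPM against 33.9, 31.6 and 31.3 CPM. Both overlapped between the groups, with log2 fold changes of -0.18 (95% interval -0.37 to 0.00, edgeR adjusted p = 0.133) and 0.00 (95% interval -0.16 to 0.17, edgeR adjusted p = 0.974).

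The summed level of the activating proteins overlapped between the groups while their makeup differed. The 4 came to 62.5 ± 3.23 FPKM in the controls and 62.7 ± 0.596 FPKM with RAC3. RAP1GAP held 29.5% ± 1.89 of the sum in the controls and 22.8% ± 0.563 with RAC3, whereas SIPA1L3 held 50.6% ± 1.35 and 57.3% ± 1.05. Neither share overlapped between the groups. The ratio of RAP1GAP to SIPA1L3 was 0.584 ± 0.0507 in the controls and 0.398 ± 0.0107 with RAC3. The ratio of summed exchange factors to summed activating proteins was 0.849 ± 0.0277 and 0.815 ± 0.0111, with overlap. These sums weight each gene by its transcript level and carry no test. The deposited FPKM were not rescaled between libraries here. Over all genes tested the median log2 fold change was 0.05 on FPKM and 0.00 on the normalized counts.

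**Figure D2:**
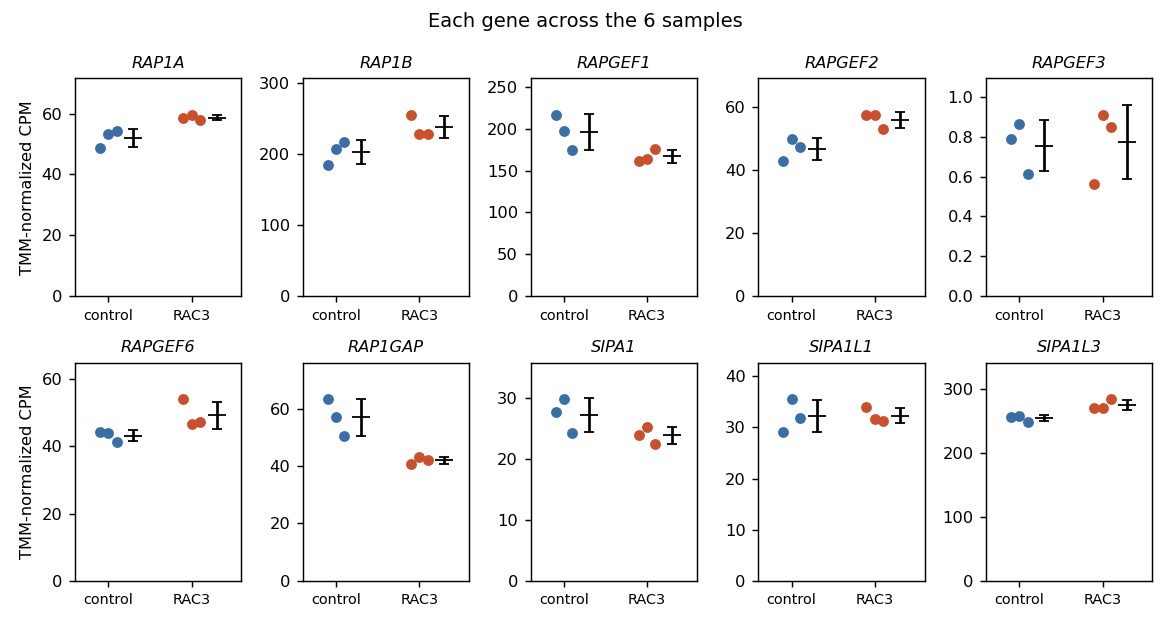
Normalized CPM of each of the 10 Rap1 genes in the 3 negative control and 3 RAC3 overexpression samples, a panel per gene with a point per sample and a bar at each group mean. RAP1GAP has all overexpression samples (40.9 to 43.1 CPM) below all controls (50.6 to 63.3 CPM), while RAPGEF1, RAPGEF3, SIPA1 and SIPA1L1 overlap.

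All 10 members passed the filter on low counts, and 6 had an adjusted p below 0.05, against 28.5% of the 12941 genes tested. The 4 that were higher were RAP1A, RAP1B, RAPGEF2 and RAPGEF6 (13.3% of all genes tested were called higher), and the 2 that were lower were RAPGEF1 and RAP1GAP (15.3% of all were called lower). With the libraries scaled by size alone, the split over all genes moved from 1717 higher and 1974 lower to 2613 higher and 1381 lower. Tested on log2(FPKM + 0.1) with limma, 3 members were called, RAP1A and SIPA1L3 higher and RAP1GAP lower, where 2162 of all 12941 genes were called. The median log2 fold change of the members was 0.07 and of all genes tested 0.00. The groups did not overlap in 6 members, against 42.5% of all genes tested. None of the 10 passed a fold of 1.5 with an unadjusted p below 0.05, a criterion met by 4.68% of all genes tested, while 7 had an unadjusted p below 0.05. For 8 members the whole 95% interval lay within 1.5-fold in either direction, and for RAP1GAP and RAPGEF3 it reached that size. An exact permutation test on a single gene cannot go below p = 0.10 with 3 samples against 3.

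**Figure D3:**
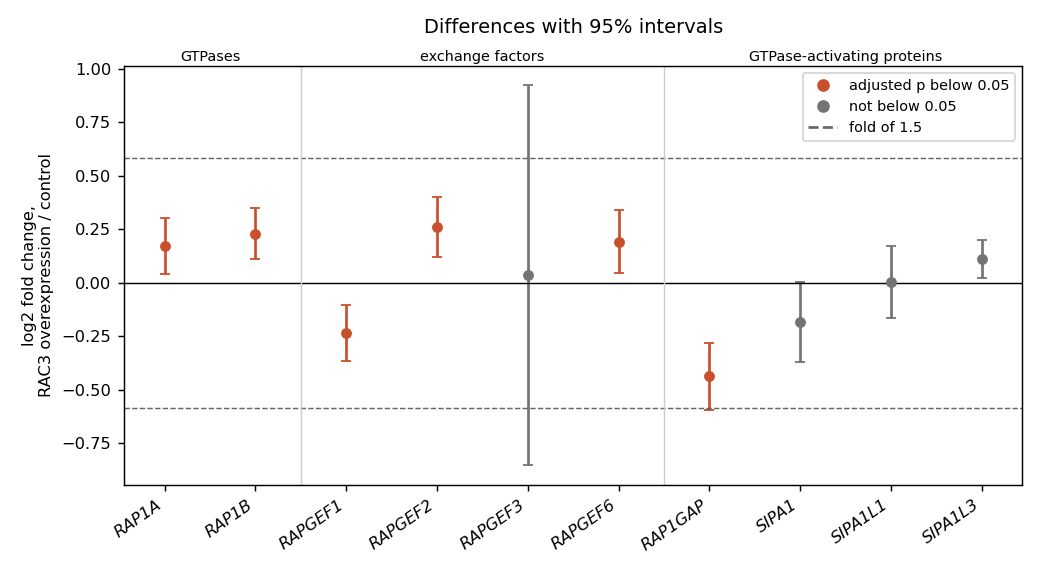
Log2 fold change of each Rap1 gene, RAC3 overexpression over negative control, with its 95% interval from edgeR's quasi-likelihood fit (n = 3 per group) and dashed lines at a fold of 1.5. The point estimates run from -0.44 for RAP1GAP to 0.26 for RAPGEF2, all inside the dashed lines.

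The share of G and C in a transcript moved with the comparison over the whole table, and the members differ widely in it. With the genes cut into deciles by that share, the poorest in G and C (30.2% to 38.5%) centred on 0.17 on the log2 scale, and 33.6% of its genes were called higher and 1.48% lower. In the richest decile (61.7% to 74.5%) the median was -0.21, with 1.17% called higher and 37.5% called lower, and the medians fell at every step in between. All 3 controls deviated to one side and all 3 overexpression samples to the other in both of these deciles, so this trend and the RAC3 condition cannot be told apart in these libraries. The size of the trend also differed within the groups. In the poorest decile the median deviations were -0.139, -0.0655 and -0.0468 in the controls and 0.135, 0.0453 and 0.0767 with RAC3.

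Of the members, RAP1A (37.8%) and RAP1B (37.9%) lie in the poorest decile, whose median of 0.17 stands beside their log2 fold changes of 0.17 and 0.23. RAPGEF1 (58.7%) and RAP1GAP (60.9%) lie in a decile with a median of -0.16, beside their own -0.23 and -0.44. RAPGEF2 (48.1%) lies near the middle, where the median was 0.04. SIPA1L3 (61.9%) and SIPA1 (66.8%) are in the richest decile. As an alternative chosen after seeing the data, each library's trend on the share of G and C was removed and the test repeated. RAPGEF2 then stayed at 0.25 (edgeR adjusted p = 0.00603) and RAP1GAP at -0.26 (edgeR adjusted p = 0.00568), both still called. SIPA1L3 came to a log2 fold change of 0.29 (95% interval 0.21 to 0.37, edgeR adjusted p = 1.2e-05) and was now called higher. RAP1A was then at 0.01 (edgeR adjusted p = 0.891), RAP1B at 0.07 (95% interval -0.02 to 0.16, edgeR adjusted p = 0.263), RAPGEF1 at -0.08 (edgeR adjusted p = 0.286) and RAPGEF6 at 0.06 (edgeR adjusted p = 0.568), and none of these 4 was called. The members called were thus 3 (RAPGEF2, SIPA1L3 and RAP1GAP) where 20.9% of all genes were called.

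**Figure D4:**
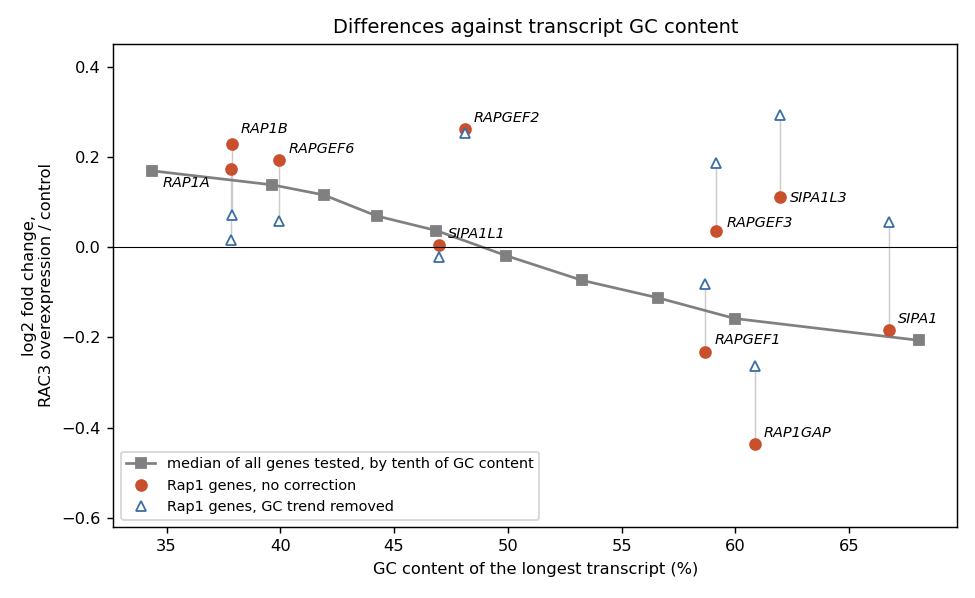
Log2 fold change of the Rap1 genes against the share of G and C in their longest transcript (percent), before and after each library's trend was removed, with the median of all genes in each decile placed at the middle of its range. The medians fall from 0.17 to -0.21, RAP1A and RAP1B lie close to or above that line, and RAP1GAP and RAPGEF2 keep -0.26 and 0.25 after its removal.

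Other genes of the pathway were called in both directions. Of 14 further regulators of Rap1, 13 were tested, 1 was higher and 1 lower, with a median log2 fold change of 0.05. The share called was 15.4%, against 28.5% of all genes tested. RAPGEF4, an exchange factor of that list, was at 2.57 ± 0.265 FPKM in the controls and 2.16 ± 0.568 FPKM with RAC3, above RAPGEF3 in both. It was not called (log2 fold change -0.32, edgeR adjusted p = 0.156), though its groups did not overlap in CPM. RAPGEF5, another exchange factor, was at 30.4, 30.8 and 30.5 CPM in the controls and at 44.4, 40.1 and 39.0 CPM with RAC3. The groups were separate, and its log2 fold change of 0.43 (SE 0.0724, edgeR adjusted p = 2.0e-04) became 0.35 (edgeR adjusted p = 7.9e-04) with the G and C trend removed. RAP1GAP2, the closest relative of RAP1GAP in the list, was at 82.2, 77.6 and 71.9 CPM in the controls and at 65.7, 63.9 and 66.7 CPM with RAC3. It was lower by -0.24 on the log2 scale (edgeR adjusted p = 0.00602) and at -0.12 (edgeR adjusted p = 0.114) with the trend removed. With the trend removed 3 regulators were higher (RAPGEF5, SIPA1L2 and BCAR1) and 0 were lower, where 20.9% of all genes were called.

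Effectors, which bind active Rap1, were tested for 11 of 14 genes, with 1 higher, 3 lower and a median log2 fold change of -0.07. The share called was 36.4%, against 28.5% of all genes tested. KRIT1, a junction protein, was at 23.9, 19.0 and 20.1 CPM in the controls and at 34.6, 29.3 and 27.7 CPM with RAC3. Its log2 fold change was 0.55 (edgeR adjusted p = 4.2e-04), and 0.39 (edgeR adjusted p = 0.00582) with the trend removed. TLN1 (talin, which activates integrins) was at -0.15, RALGDS at -0.28 and VAV2 at -0.18, each lower in the test and none called with the trend removed. AFDN was called lower only with the trend removed. APBB1IP (RIAM), RADIL and TIAM1 were not tested because of their low counts.

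The related Rap2 GTPases RAP2A, RAP2B and RAP2C had log2 fold changes of -0.04, 0.08 and 0.10, and none passed the test (edgeR adjusted p = 0.682, 0.477 and 0.336). Within that list of 7 genes, 6 were tested and MINK1, a Rap2 effector kinase, was lower (-0.19, edgeR adjusted p = 0.0062). That call is 16.7% of those tested, against 28.5% of all genes. With the trend removed RAP2A was lower instead (-0.20, edgeR adjusted p = 0.0216). Genes that make, degrade or respond to cyclic AMP, the ligand of RAPGEF3, were tested for 16 of 21 symbols. Of these, 1 was higher (PDE3A, 0.20, edgeR adjusted p = 0.00948) and 1 lower (ADCY9, -0.22, edgeR adjusted p = 0.00239), with a median of -0.15. The share called was 12.5%, against 28.5% of all genes tested. PRKACB, a catalytic subunit of protein kinase A, was at 24.9, 28.4 and 29.6 CPM in the controls and at 25.9, 31.6 and 25.04 CPM with RAC3, a log2 fold change of -0.01 (edgeR adjusted p = 0.96). With the trend removed, 2 of the 16 genes tested in the cyclic AMP list were lower, PDE4D (-0.27) and PRKAR2B (-0.32), and 0 were higher. In that test 20.9% of all genes were called. PDE3A (0.11, edgeR adjusted p = 0.139) and ADCY9 (-0.09, edgeR adjusted p = 0.166) were then not called, and the median of the list was -0.07. RAC1, RAC2 and RHOG, the relatives of RAC3, had log2 fold changes of 0.02, -0.49 and -0.17 and did not pass the test (edgeR adjusted p = 0.765, 0.257 and 0.0951).

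**Figure D5:**
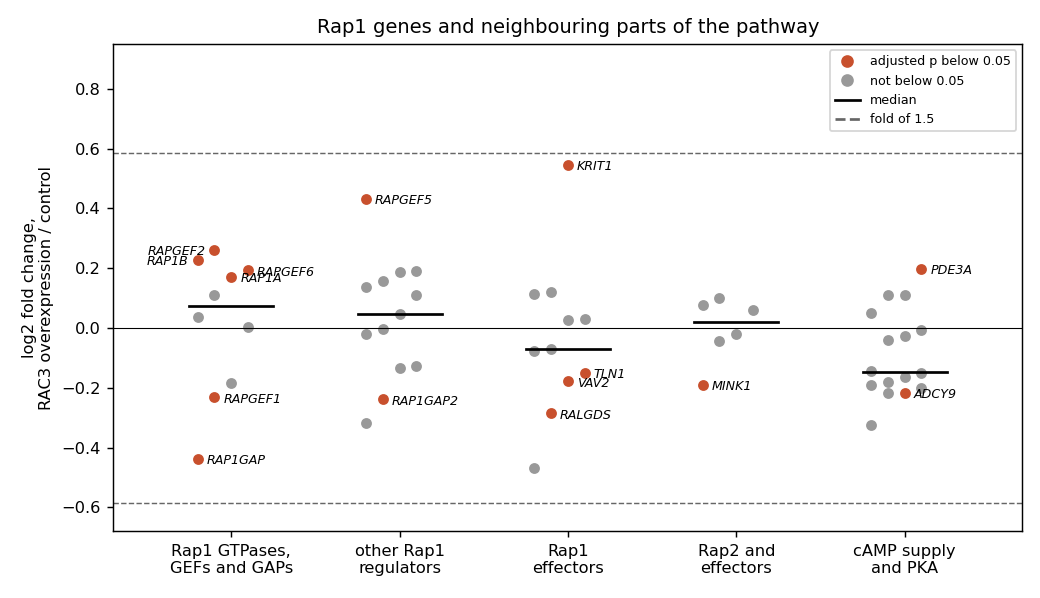
Log2 fold change, RAC3 overexpression over negative control, of each tested gene in the Rap1 list and in 4 further lists of its pathway, with a bar at each list's median and dashed lines at a fold of 1.5. Coloured points have an adjusted p below 0.05; KRIT1 at 0.55 and RAPGEF5 at 0.43 lie highest, and no point called by that test passes 1.5-fold.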

How the data were processed

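RNA of 3 negative control and 3 RAC3 overexpression samples of Huh-7 was analysed from a table of counts and FPKM per gene. Per the labels' processing notes, the authors used HISAT2, Bowtie2 2.2.8, StringTie 1.3.1 and DESeq2. The deposited counts are whole, not normalized, and the deposited FPKM were used for levels between genes. The genome build, annotation, counting tool and strand setting are not given in the sources used here. Counts were filtered by filterByExpr (12941 of 20332 genes kept, 3760 at 0 in every sample), scaled by TMM and tested with edgeR 4.0.16's quasi-likelihood test in R 4.3.3, with Benjamini-Hochberg adjustment over all genes tested and a threshold of 0.05. FPKM were tested with limma 3.58.1 on log2(FPKM + 0.1), where folds of low genes are understated, and DESeq2 1.42.0 was another alternative. GENCODE 29 gave exon overlaps and transcript lengths and held 20113 of the table's gene IDs. The script was tested on simulated data. Genes named were all 10 members, up to 4 genes of each list with an adjusted p below 0.05, the RAC family, PRKACB and the Rap2 GTPases. The other genes named were chosen after their values were seen. The members and lists were chosen with earlier results of these data known. The study's methods describe 3 RNA samples per group as independent. Neither they nor the labels say that samples came from separate cultures, so p-values measure the spread between these samples, which may be technical. Intervals and limits of detection cover counting error only where they come from counts of 1 library.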

Additional observations from a re-analysis of the deposited data

How the results depend on the processing

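The number of Rap1 genes called was 6 and fell to 3 with the G and C trend removed (RAPGEF2, SIPA1L3 and RAP1GAP) and to 3 (RAP1A, SIPA1L3 and RAP1GAP) on log2(FPKM + 0.1) with limma. Over all genes the calls were 3691 of 12941, then 2685 of 12863 and 2162 of 12941 in these alternatives. The Rap1 genes called were 7 with scaling by library size alone (3994 of 12941 over all genes) and 5 with the DESeq2 test (3137 of 12439). They were 4 with the length trend removed (3651 of 12863) and 4 to 6 when 1 library was left out (2659 to 3338 of 12941). RAP1GAP kept its direction and call in 17 of 17 alternatives (log2 fold change -0.52 to -0.26). RAP1A and RAPGEF6 each lost their call in 10 of 17, RAP1B and RAPGEF1 in 2 and RAPGEF2 in 1. In that FPKM test RAP1A was called at 0.27 (limma adjusted p = 0.0203). RAP1B at 0.26 (0.0644) and RAPGEF2 at 0.31 (0.0672) had larger log2 fold changes than in the count test but missed the threshold. The median over all genes tested was itself 0.05 on FPKM, against 0.00 in the count test. RAPGEF1 at -0.15 (limma adjusted p = 0.0824) also missed the threshold. SIPA1L3 was called in 4 alternatives, and SIPA1 (-0.27, edgeR adjusted p = 0.0384) without the third control. Directions turned for RAPGEF3, at -0.70 on FPKM and between -0.11 and 0.23 over the fits that each left out 1 library. SIPA1 turned to 0.0549 once the trend on G and C was taken out. SIPA1L1 was at 0.19 on FPKM (limma adjusted p = 0.331) and turned to -0.000115 with the filter on counts of 0, -0.0219 after correction for G and C, -0.0496 after correction for length, and -0.0612 to 0.0728 over the fits that each left out 1 library. The cause was not tested. Both trend removals, and the numbers of genes called on FPKM, were added after seeing the data. Whether replicate numbers pair the samples is not given in the labels. Same-numbered samples correlated at -0.136, -0.0656 and -0.0178 over 10169 genes. These are correlations of deviations from each group's mean with 3 samples a group, and they cannot decide the question. With the replicate number as a block, 4 Rap1 genes were called, and 3261 of 12941 over all genes. RAP1A (edgeR adjusted p = 0.0707) and RAPGEF6 (0.0657) were then not called. Over all genes 3691 were called, 2659 to 3994 under the alternatives on counts and 2162 on FPKM (1304 higher and 858 lower). RAPGEF3, at 10 to 15 counts, is the member that depth limits.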
